A study of Mus musculus with 30 samples.

Results

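The 40 genes described here carry a cell through DNA replication and mitosis. They were taken by symbol from a deposited table of 13788 genes, in which all 40 were present, and all 40 were among the 13722 genes tested. They fall by role into 8 genes of replication licensing and the MCM helicase, 5 genes of nucleotide supply and the sliding clamp, 3 regulators of S-phase entry, 12 mitotic cyclins, kinases, checkpoint and degradation genes, and 12 spindle, kinetochore and chromosome genes. The last 2 groups are called the 24 mitotic genes below.

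RNA was sequenced from primary microglia, the resident macrophages of the brain, that had been grown from mouse brains for 5 to 8 days and harvested by shaking them off. Each of 10 groups had 3 libraries. They were PD-1 KO and WT at 0 h, PD-1 KO and WT after 2 h with or without amyloid-beta, and PD-1 KO and WT after 8 h with or without amyloid-beta. Amyloid-beta was supplied as conditioned medium containing it. The medium of the cultures without amyloid-beta, the allele behind the PD-1 KO label, the age of the mice and the number of mice per library are not given in the sources used here, so the p-values cover only variation from 1 library to another, which may be technical.

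The genotype names are used below as labels only, because the check of the targeted gene went against them. Pdcd1, which encodes the inhibitory receptor PD-1, read 6.02 to 25.3 over the 15 PD-1 KO-labelled libraries, and all 15 WT-labelled ones lay at the file's floor of 1. All 10 microglia markers were in the file, and none lay at the floor in any library; Csf1r, the receptor for colony-stimulating factor 1, read 7517 to 13661 in PD-1 KO-labelled libraries and 7977 to 13202 in WT-labelled ones. Reads recovered from the values ranged from 4227019 to 48509985 per library, with 3466 to 54332 of them on the 40 genes, and no value of the 40 lay at the floor. The shallowest library, WT 8 h replicate 3, also had lower values than its group mates for most mitotic genes. Ccnb1, for instance, read 62.2, 41.5 and 10.03 in replicates 1, 2 and 3, the last from 4 reads. Some mitotic genes were instead highest in it, such as Plk1 at 19.6, 24.6 and 27.6 and Cdc20 at 37.1, 36.9 and 55.2 in replicates 1, 2 and 3. The main counts and medians and most named differences that use that library are therefore given below with and without it. The 8 h libraries carry a separate run of numbers in their labels, whose meaning is not stated, so time and that numbering cannot be told apart, while the amyloid-beta and genotype comparisons at 8 h lie within 1 run.

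A dividing cell loads MCM helicases onto its origins of replication before S phase, with the help of Cdc6 and Cdt1, and then copies its DNA with the sliding clamp Pcna and deoxynucleotides made by ribonucleotide reductase and thymidylate synthase. Cyclin A and cyclin B with Cdk1, the Polo and Aurora kinases and the transcription factor Foxm1 then drive mitosis, and their RNA peaks late in the cycle. E2F factors bind the promoters of many replication genes, whereas many mitotic genes carry a cell cycle genes homology region (CHR), bound by the MuvB complex, and CCAAT boxes, bound by NF-Y. Microglia are long-lived cells that can renew themselves by division and that divide readily in mixed glial culture.

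Promoter sequences from RefSeq (GRCm38.p6, 250 bases before to 50 after the start) were at hand for 32 of the 40 genes, 34 promoters in all. They were searched on both strands for E2F letters (TTTGGCGC, TTTCCCGC, TTTGCCGC or TTTCGCGC), CHR letters (TTTGAA or the second form TTCGAA, which reads the same on both strands and was counted once) and CCAAT boxes (the letters CCAAT with CA, CG, GA or GG after them). Mcm4, Gins2, Ccne2, Ccna2, Aurkb, Foxm1, Kif20a and Tpx2 were not searched. The promoters of 5 genes are printed because they show both layouts, with the matched letters in capitals. Cenpf, Top2a and Ube2c are mitotic genes whose change to 8 h with amyloid-beta differed between the genotype labels in a test below. Mcm5 is the helicase gene that fell under both labels, and Mcm3 is a helicase gene that passed no test within a label. Cenpf lies at chr1:189688037-189688336 on the minus strand, Top2a at chr11:99024140-99024439 on the minus strand, Ube2c at chr2:164769679-164769978 on the plus strand, Mcm5 at chr8:75109259-75109558 on the plus strand and Mcm3 at chr1:20820263-20820562 on the minus strand.
Cenpf: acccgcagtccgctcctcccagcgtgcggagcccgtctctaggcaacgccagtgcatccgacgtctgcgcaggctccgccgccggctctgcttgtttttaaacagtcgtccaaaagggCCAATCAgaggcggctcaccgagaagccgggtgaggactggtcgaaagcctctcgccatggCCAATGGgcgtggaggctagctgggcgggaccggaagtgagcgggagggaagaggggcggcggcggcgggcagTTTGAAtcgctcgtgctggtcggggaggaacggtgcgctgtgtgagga
Top2a: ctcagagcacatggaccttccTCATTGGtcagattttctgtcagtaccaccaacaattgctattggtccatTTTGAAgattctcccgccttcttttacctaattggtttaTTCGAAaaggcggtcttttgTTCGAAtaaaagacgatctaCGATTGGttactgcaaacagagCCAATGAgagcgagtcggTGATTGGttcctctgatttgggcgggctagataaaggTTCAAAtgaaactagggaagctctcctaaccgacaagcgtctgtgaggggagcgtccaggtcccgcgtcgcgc
Ube2c: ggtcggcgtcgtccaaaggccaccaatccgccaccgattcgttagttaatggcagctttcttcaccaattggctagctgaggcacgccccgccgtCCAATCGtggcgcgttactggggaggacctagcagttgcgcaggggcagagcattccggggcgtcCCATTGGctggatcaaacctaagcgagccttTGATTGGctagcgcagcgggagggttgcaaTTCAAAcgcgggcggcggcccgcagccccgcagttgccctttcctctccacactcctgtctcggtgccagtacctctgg
Mcm5: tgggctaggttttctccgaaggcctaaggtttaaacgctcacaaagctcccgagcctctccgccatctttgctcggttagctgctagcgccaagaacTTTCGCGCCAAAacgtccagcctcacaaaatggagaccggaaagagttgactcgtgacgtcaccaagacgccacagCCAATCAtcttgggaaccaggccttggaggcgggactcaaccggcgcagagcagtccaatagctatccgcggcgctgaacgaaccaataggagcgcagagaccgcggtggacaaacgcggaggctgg
Mcm3: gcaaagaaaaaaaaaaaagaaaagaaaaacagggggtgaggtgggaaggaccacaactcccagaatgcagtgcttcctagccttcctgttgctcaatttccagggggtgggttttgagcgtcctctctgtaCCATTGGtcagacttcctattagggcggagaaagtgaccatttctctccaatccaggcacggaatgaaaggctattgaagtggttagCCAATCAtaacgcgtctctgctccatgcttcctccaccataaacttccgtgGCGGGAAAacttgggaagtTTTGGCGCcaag
The Cenpf promoter held 2 CCAAT boxes and 1 CHR match, Ube2c 3 CCAAT boxes and 1 CHR match, and Top2a 4 of each. Mcm5 held 2 E2F matches that overlap within 12 letters and 1 CCAAT box, and Mcm3 held 2 E2F matches and 2 CCAAT boxes. Neither helicase promoter had CHR letters in this window.

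Over the 20 promoters of the 19 mitotic genes searched, 16 (80%) held CHR letters, 13 (65%) a CCAAT box, 12 (60%) both and 2 (10%) E2F letters. Over the 14 promoters of the 13 replication and S-phase genes, 5 (35.7%) held E2F letters, 2 (14.3%) CHR letters and 6 (42.9%) a CCAAT box. Over all 32851 promoters of the table, 2.26% held E2F letters, 19.2% CHR letters, 17.1% a CCAAT box and 3.1% both of the last 2. The E2F matches came from the licensing genes, where 5 of 7 promoters held one, and from Cdk1 and Ncapg. A match is a description of letters and not a bound site.

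**Figure D1:**
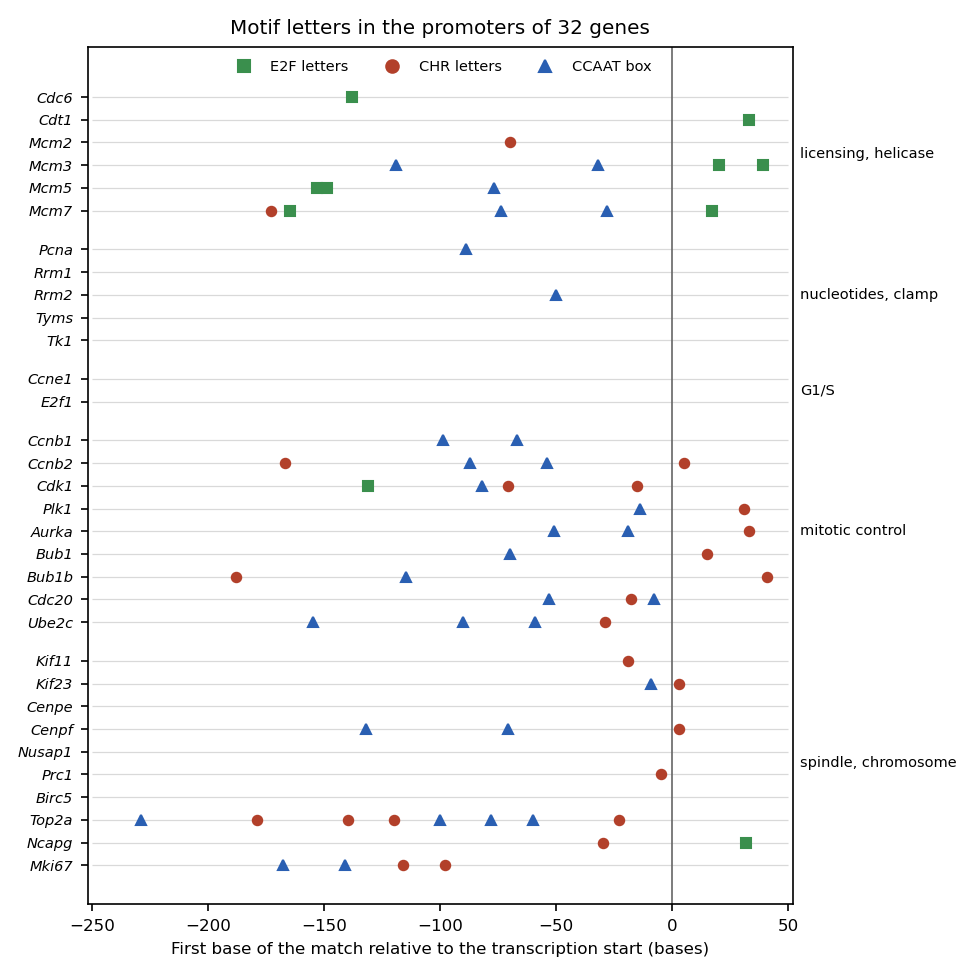
Positions of E2F letters (squares), CHR letters (circles) and CCAAT boxes (triangles) in the promoters of 32 genes, grouped by role. The x axis gives the first base of the match relative to the transcription start, in bases. Mcm7 and Prc1 have 2 promoters each, of which only the first is drawn. Over all promoters searched, drawn or not, CHR letters lie in 16 of the 20 mitotic ones and in 2 of the other 14.

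Levels between genes can be compared only per length. Per kilobase of exon, the mean value over all libraries was 2332 for Pcna (chr2:132249162-132253314, minus strand, GRCm38), far above 122 for Cdt1, the second gene. Cdc6, the loader of the helicase, was lowest at 3.16. Top2a, which untangles chromosomes, lay at 33.3, Cdk1, the mitotic kinase, at 22.6, and Ccnb1, its cyclin, at 16.6.

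By group mean, the 40 genes as a whole read lower at 8 h than at 0 h under both labels. The fall was larger under the WT label, and largest there at 8 h with amyloid-beta. The geometric mean of the 40 genes at 8 h with amyloid-beta was 68.7, 91.8 and 80.2 in the 3 PD-1 KO-labelled libraries and 47.8, 42.9 and 42.1 in the 3 WT-labelled ones. At 8 h without amyloid-beta it was 85.7, 70.1 and 80.3 in PD-1 KO-labelled libraries and 68.4, 67.01 and 46.9 in WT-labelled ones. At 0 h it was 112, 90.9 and 98.9 in PD-1 KO-labelled libraries and 123, 113 and 102 in WT-labelled ones, so the genotype labels overlapped at 0 h and did not at 8 h under either treatment. The 2 h groups without amyloid-beta lay nearer to 0 h than to 8 h. They read 100.4, 103 and 103 in PD-1 KO-labelled libraries and 102, 104 and 110.1 in WT-labelled ones. At 2 h with amyloid-beta the geometric mean was 98.1, 87.4 and 77.1 in PD-1 KO-labelled libraries. In WT-labelled libraries it was 85.2, 99.04 and 72.6. In such bulk samples, fewer dividing cells and less of these RNAs per cell cannot be told apart. No test was made on this summary; the tests below were fitted to all 13722 genes on the log2(value + 1) scale, with limma and Benjamini-Hochberg adjustment. Differences are given ± standard error, from a spread fitted over all 30 libraries, except where a library was left out. Between 2 groups they set 3 libraries against 3. Genotype differences of a change combine groups of both labels, and differences over all 5 conditions set 15 libraries against 15.

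**Figure D2:**
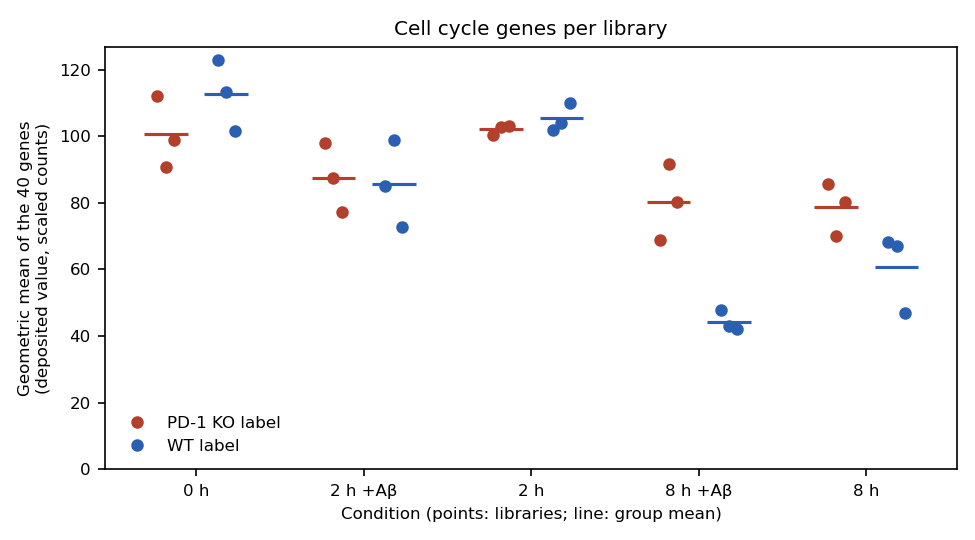
Geometric mean of the deposited values (size-factor-scaled counts) of the 40 genes in each library, by condition, with PD-1 KO-labelled libraries (red) left of WT-labelled ones (blue); points are libraries and lines are means of 3. The WT-labelled libraries at 8 h with amyloid-beta sit between 42.1 and 47.8, below all others in their label except WT 8 h replicate 3 at 46.9.

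At 2 h none of the 40 genes passed the test in either label, with or without amyloid-beta. For 2 h against 0 h without amyloid-beta, limma called 0 of 40 in PD-1 KO-labelled libraries (0.634% of all genes were called) and 0 of 40 in WT-labelled ones (4.75% of all genes). At an unadjusted p below 0.05, 1 member was higher and 1 lower in PD-1 KO-labelled libraries (699 and 496 of all 13722 genes). In WT-labelled ones 1 was higher and 4 lower (1360 and 1289 of all genes). The voom fit to recovered reads called 0 of 40 under the PD-1 KO label and 1 under the WT label. Limma called 1 under the WT label when WT 0 h replicate 1 or WT 2 h replicate 3 was left out. The genotype difference of the 2 h change was called for 0 of 40 genes (0.736% of all genes), and voom called 0. At an unadjusted p below 0.05, 4 were higher and 2 lower (931 and 876 of all genes). The limma count was 1 without WT 0 h replicate 1, PD-1 KO 0 h replicate 1 or WT 2 h replicate 3. For amyloid-beta against none at 2 h, the median log2 difference of the 40 was -0.23 under the PD-1 KO label, with all genes at 0.01. There 34 of 40 were negative (6543 of all 13722 genes). Under the WT label the median was -0.26, with all genes at -0.01, and 35 of 40 were negative (7030 of all genes). No gene of the 13722 tested was called in either of these comparisons by limma (0%). At an unadjusted p below 0.05, 2 of the 40 were lower under the PD-1 KO label and 7 under the WT label (391 and 344 of all genes). None of the 40 was higher (224 and 337 of all genes). Voom called 0 of the 40 in both comparisons. The genotype difference of this effect was called for 0 of 40 genes by limma (0.051% of all genes) and by voom. At an unadjusted p below 0.05, 0 were higher and 0 lower (280 and 383 of all genes).

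From 0 h to 8 h without amyloid-beta, 1 of the 40 genes fell under the PD-1 KO label and 23 fell under the WT label; none rose under either. Over all genes, 1.79% fell and 1.5% rose in PD-1 KO-labelled libraries, and 3.05% fell and 3% rose in WT-labelled ones. The median of the 40 was -0.32 in PD-1 KO-labelled libraries and -1.01 in WT-labelled ones, where all genes had medians of 0.00 and -0.02. Without WT 8 h replicate 3 the WT-labelled median was -0.80. Of the 40 estimates, 36 were negative under the PD-1 KO label and 37 under the WT label (6751 and 7211 of all 13722 genes). Under the WT label, 17 of the 24 mitotic genes fell, as did 3 of 8 licensing genes (Cdc6, Mcm5 and Mcm7), 3 of 5 nucleotide and clamp genes (Rrm1, Rrm2 and Tk1) and 0 of 3 S-phase entry genes. The count for the WT label depends on WT 8 h replicate 3: without it 13 of 40 fell, 10 of them mitotic. Fitting only the groups compared gave 0 under the PD-1 KO label and 10 under the WT label, and quantile normalization gave 4 under the PD-1 KO label. Of the cell markers, 4 of 11 oligodendrocyte-lineage ones fell and 3 of 10 microglia ones rose under the WT label, with medians of -0.52 and 0.37, and no astrocyte, neuronal or fibroblast and vascular marker was called. Without WT 8 h replicate 3 these counts were 0 of 11 and 3 of 10. Under the PD-1 KO label 1 oligodendrocyte-lineage and 1 neuronal marker fell. The part of these cells was not tested. The genotype difference of the change itself passed the test for 0 of the 40 genes (0.27% of all genes were called), and voom called 0. At an unadjusted p below 0.05, 15 were higher and 2 lower (761 and 666 of all 13722 genes), and the median of this difference was 0.62. Without WT 8 h replicate 3 its median was 0.35, again with 0 called, and 3 passed without PD-1 KO 0 h replicate 1.

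The helicase gene Mcm5 (chr8:75109569-75128439, plus strand) fell under both labels. It read 81.7, 45.2 and 92.4 at 8 h and 159, 128 and 174 at 0 h in PD-1 KO-labelled libraries, without overlap, a log2 difference of -1.11 ± 0.21 (adjusted p = 0.00186). It read 90.6, 88.4 and 67.7 at 8 h and 191, 156 and 154 at 0 h in WT-labelled libraries, also without overlap, a difference of -1.02 ± 0.21 (adjusted p = 0.00363), or -0.88 (adjusted p = 0.0358) without WT 8 h replicate 3. Mcm5 was called in PD-1 KO-labelled libraries also for 8 h against 2 h, at -1.16 ± 0.21, together with the helicase gene Mcm2 at -0.64 ± 0.15 (2 of 40 fell, against 0.94% of all genes, and 1 of 40 without PD-1 KO 2 h replicate 1, PD-1 KO 2 h replicate 3 or PD-1 KO 8 h replicate 2). Mcm2 read 235, 175 and 243 at 8 h and 368, 312 and 334 at 2 h in those libraries. The lowest gene of the set, Cdc6, read 9.82, 6.15 and 5.01 at 8 h and 26.2, 28.7 and 21.5 at 0 h in WT-labelled libraries, a difference of -1.76 ± 0.37 (adjusted p = 0.0034), or -1.58 (adjusted p = 0.0289) without WT 8 h replicate 3. In PD-1 KO-labelled libraries Cdc6 read 10.8, 5.89 and 12.3 at 8 h and 19.05, 14.2 and 5.71 at 0 h, where the groups overlapped and the difference was -0.31 ± 0.37 (adjusted p = 0.757). Some of the Cdc6 values rest on few reads, and Cdc6 was already lower in PD-1 KO-labelled libraries at 0 h, at -1.05 ± 0.37. That call at 0 h was lost without WT 0 h replicate 2 and by voom.

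Among the mitotic genes, Ube2c, the ubiquitin-conjugating enzyme of the anaphase-promoting complex, had the largest fall of the 40 under the WT label with all 3 libraries (chr2:164769898-164778822, plus strand). Its values there were 17.5, 29.6 and 10.03 at 8 h and 94.3, 59.5 and 56.2 at 0 h, a difference of -1.91 ± 0.35 (adjusted p = 0.000979), which was -1.54 (adjusted p = 0.0171) without WT 8 h replicate 3, where Cdc6 had the largest fall. In PD-1 KO-labelled libraries Ube2c read 25.8, 31.4 and 36.8 at 8 h and 55.2, 58.3 and 63.98 at 0 h, without overlap, and the difference of -0.91 ± 0.35 did not pass (adjusted p = 0.194). The proliferation marker Mki67 (chr7:135689784-135716361, minus strand) read 351, 269 and 199 at 8 h and 365, 245 and 268 at 0 h in PD-1 KO-labelled libraries, and the groups overlapped. In WT-labelled libraries Mki67 read 212, 205 and 95.3 at 8 h and 321, 453 and 405 at 0 h, a difference of -1.27 ± 0.28 (adjusted p = 0.00627). Without WT 8 h replicate 3 the Mki67 difference was -0.90 (adjusted p = 0.0848) and no longer passed. Cdk1 did not pass under either label, at -0.17 ± 0.25 (adjusted p = 0.817) in PD-1 KO-labelled libraries and -0.75 ± 0.25 (adjusted p = 0.0733) in WT-labelled ones, where it was -0.46 (adjusted p = 0.433) without WT 8 h replicate 3.

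Against 2 h in place of 0 h, the WT-labelled libraries at 8 h without amyloid-beta had 17 of 40 genes lower (3.13% of all genes fell), 8 without WT 2 h replicate 3 and 10 without WT 2 h replicate 2, 4 without WT 8 h replicate 3 and 0 when only the groups compared were fitted. With amyloid-beta at both times, 0 of the 40 genes were called for 8 h against 2 h under the PD-1 KO label (1.71% of all genes were called), and voom called 0. At an unadjusted p below 0.05, 2 of the 40 were lower there (741 of all 13722 genes). Under the WT label 24 of 40 fell, against 13.8% of all genes. This comparison does not use WT 8 h replicate 3, and its count ran from 18 to 25 with 1 library left out at a time, but it was 11 when only the groups compared were fitted. Of the 24 mitotic genes, 19 fell under the WT label. Ccna2, which encodes cyclin A2, read 33.95, 30.9 and 34.01 at 8 h and 118, 121 and 87.6 at 2 h in WT-labelled libraries with amyloid-beta, without overlap. In PD-1 KO-labelled libraries with amyloid-beta it read 74.6, 93.5 and 81.3 at 8 h and 107, 90.3 and 79.6 at 2 h, with overlap. The genotype difference of this change, PD-1 KO minus WT, was positive for 40 of 40 genes (7067 of all 13722 genes). It was called for 3, against 1.33% of all genes called higher; it was added after the data were seen, and it called 5 when the first library of the WT 2 h amyloid-beta group was left out. Those 3 were Ube2c at 2.35 ± 0.50 (adjusted p = 0.0112), Ccna2 at 1.53 ± 0.23 (adjusted p = 0.000612) and Top2a at 1.53 ± 0.29 (adjusted p = 0.0039). At 2 h with amyloid-beta, Ube2c read 50.7, 18.1 and 26.5 in PD-1 KO-labelled libraries and 72.7, 68.9 and 51.5 in WT-labelled ones. Its difference of changes thus holds a gap at 2 h, which was itself called, as well as 1 at 8 h. For 8 h with amyloid-beta against 0 h, its difference of changes was 1.45 ± 0.50 in limma and did not pass (adjusted p = 0.105). Under the WT label all 10 microglia markers fell in the same 8 h against 2 h comparison, with a median of -0.62, as did 4 of 10 astrocyte, 5 of 11 oligodendrocyte-lineage, 3 of 8 neuronal and 1 of 9 fibroblast and vascular markers. Under the PD-1 KO label 1 of 8 neuronal markers fell and no marker of the other 4 lists was called. The part of these cells in the result was not tested.

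The widest change was at 8 h with amyloid-beta against 0 h, a comparison added after the data were seen. It shares its 0 h libraries with 8 h against 0 h without amyloid-beta. Its 8 h libraries are also those of 8 h against 2 h with amyloid-beta. Of the 40 genes, 3 fell under the PD-1 KO label, where 4.15% of all genes fell, and 29 fell under the WT label, where 12% of all genes fell. None of the 40 rose, beside 2.81% and 7.43% of all genes. The median of the 40 was -0.33 in PD-1 KO-labelled libraries and -1.43 in WT-labelled ones, with all genes at 0.03 and -0.02. Of the 40 estimates, 37 were negative under the PD-1 KO label and 39 under the WT label (6375 and 7232 of all 13722 genes). All 24 mitotic genes fell in WT-labelled libraries, by log2 differences of -1.14 ± 0.25 for Cdk1 to -2.46 ± 0.35 for Ube2c. The 5 further genes were Cdc6, Mcm4, Mcm5, Rrm1 and Rrm2. The 3 genes that fell under the PD-1 KO label were Mcm5 at -0.75 ± 0.21 (adjusted p = 0.0293), Ccna2 at -0.61 ± 0.17 (adjusted p = 0.0204) and the S-phase transcription factor E2f1 at -0.38 ± 0.12 (adjusted p = 0.0445); that count was 0 without PD-1 KO 0 h replicate 3 or without the first or the third library of the PD-1 KO 8 h amyloid-beta group, 1 without its second library, 6 by voom, 6 under quantile normalization, 5 with a pseudocount of 10 and 1 when only the groups compared were fitted. The WT count was 28 or 29 when any of its libraries was left out.

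**Figure D3:**
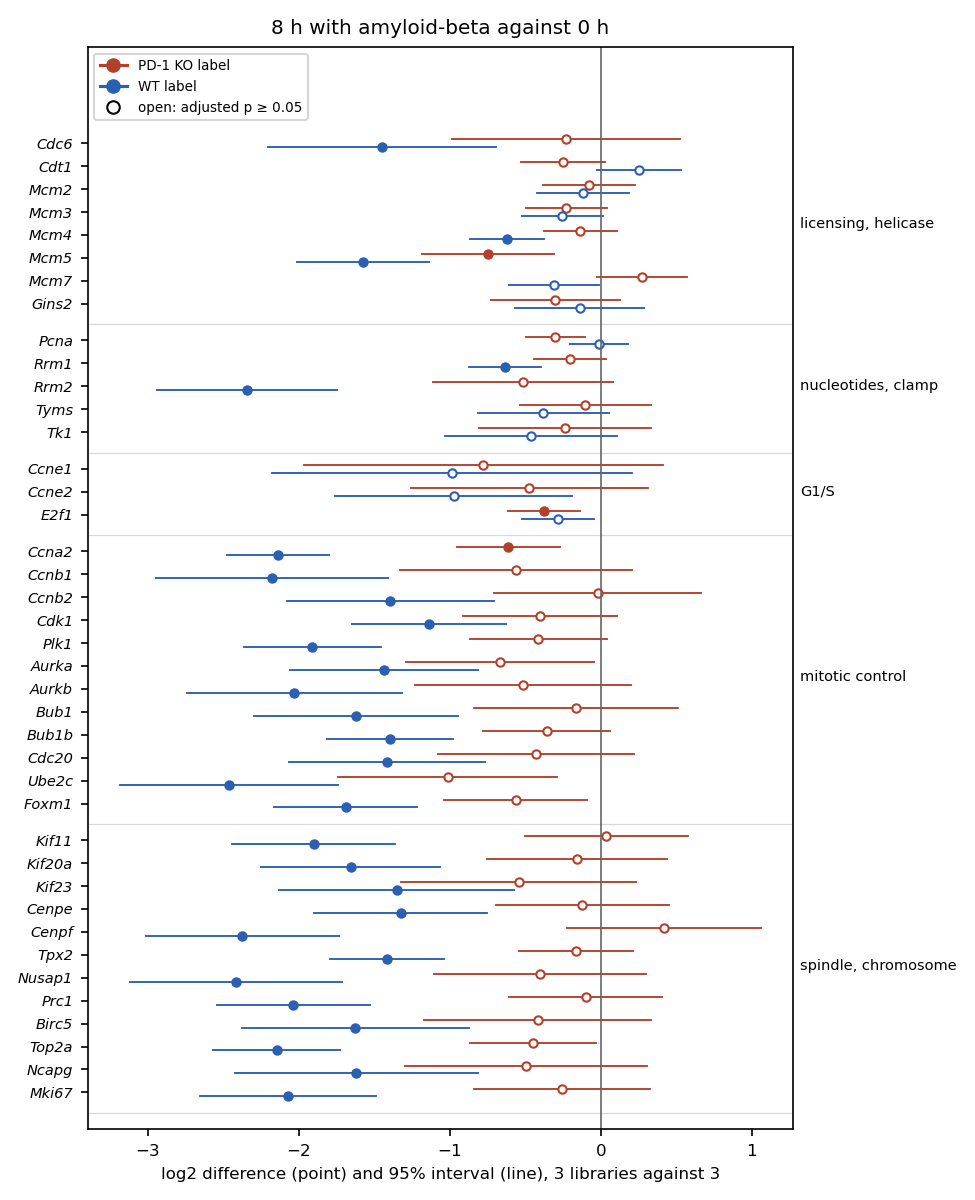
Log2 difference, 8 h with amyloid-beta against 0 h, of each of the 40 genes in PD-1 KO-labelled (red, upper) and WT-labelled (blue, lower) libraries, grouped by role; points are limma estimates, lines 95% intervals, and filled points passed an adjusted p of 0.05. All 24 mitotic genes are filled in blue and 1 of them, Ccna2, in red.

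The genotype difference of this change passed the test for 13 of 40 genes, all with the more negative change under the WT label, against 3.46% of all genes called in that direction. The median over the 40 was 1.13, and over all genes 0.01. Of the 13, 12 were mitotic genes, and the other was Rrm2. Cenpf, a kinetochore protein (chr1:189640606-189688086, minus strand), differed most, at 2.79 ± 0.44 (adjusted p = 0.0015). It read 91.5, 125 and 111 at 8 h with amyloid-beta and 129.5, 61.2 and 66.3 at 0 h in PD-1 KO-labelled libraries, and those groups overlapped. In WT-labelled libraries Cenpf read 37.1, 24.99 and 27.2 at 8 h with amyloid-beta and 115, 213 and 155 at 0 h, without overlap. At 0 h it was lower in PD-1 KO-labelled libraries, at -0.95 ± 0.31, 1 of 3 genes called lower there (6.88% of all genes). None of the 40 was called at 0 h without WT 0 h replicate 2, where Cenpf read 213, or by voom. The difference of changes of Cenpf holds this gap at 0 h as well as 1 at 8 h.

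The other leading mitotic genes began nearer to each other at 0 h. Top2a (chr11:98992943-99024189, minus strand) read 226, 313 and 274 at 8 h with amyloid-beta and 419, 320.01 and 370.2 at 0 h in PD-1 KO-labelled libraries, where the groups did not overlap and the difference was -0.45 ± 0.20 (adjusted p = 0.196). In WT-labelled libraries it read 95.5, 92.6 and 96.5 at 8 h with amyloid-beta and 461, 472 and 349 at 0 h, a fitted ratio of 0.226 on the log2(value + 1) scale. The difference of changes was 1.70 ± 0.29 (adjusted p = 0.0019). Kif11, the motor that pushes the spindle poles apart (chr19:37376403-37421859, plus strand), read 120.3, 202 and 115 at 8 h with amyloid-beta and 198, 105 and 125 at 0 h in PD-1 KO-labelled libraries. In WT-labelled libraries it read 33.95, 32.3 and 30.9 at 8 h with amyloid-beta and 135, 121 and 116 at 0 h. The PD-1 KO-labelled groups of Kif11 overlapped and the WT-labelled ones did not, with a difference of changes of 1.94 ± 0.37 (adjusted p = 0.00471). Nusap1, which bundles spindle microtubules, read 36.1, 57.8 and 38.98 at 8 h with amyloid-beta and 58.1, 55.5 and 59.4 at 0 h in PD-1 KO-labelled libraries. Its WT-labelled libraries read 12.7, 10.3 and 14.8 at 8 h with amyloid-beta and 94.3, 71.8 and 52.9 at 0 h, and the difference of changes was 2.01 ± 0.48 (adjusted p = 0.0156).

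Prc1, the midzone bundling protein of late mitosis, likewise read lowest, of the groups given here, in WT-labelled libraries at 8 h with amyloid-beta. It read 93.9, 145 and 98.95 at 8 h with amyloid-beta and 147, 89.6 and 127 at 0 h in PD-1 KO-labelled libraries, and 42.4, 42.6 and 24.7 at 8 h with amyloid-beta and 151, 156 and 140.5 at 0 h in WT-labelled ones. The difference of changes was 1.94 ± 0.35 (adjusted p = 0.0031). Mki67 at 8 h with amyloid-beta read 197, 297 and 240.3 in PD-1 KO-labelled libraries and 98.7, 86.7 and 90.3 in WT-labelled ones, which did not overlap, with a difference of changes of 1.82 ± 0.40 (adjusted p = 0.00951). Ccna2 read 141, 105 and 138 in PD-1 KO-labelled libraries and 157, 144 and 144 in WT-labelled ones at 0 h, and its difference of changes was 1.52 ± 0.23 (adjusted p = 0.00115). The mitotic kinase Plk1, the spindle factor Tpx2, the kinesin Kif20a, the transcription factor Foxm1 and the checkpoint kinase Bub1b were the other 5 that passed, with differences of changes from 1.04 ± 0.29 for Bub1b to 1.499 ± 0.41 for Kif20a. Ccnb1, which encodes cyclin B1, missed the threshold at 1.62 ± 0.53 (adjusted p = 0.0859) although it fell under the WT label, at -2.18 ± 0.37.

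Fewer replication and S-phase entry genes were called in WT-labelled libraries, 5 of 16 beside 24 of 24 mitotic genes. Pcna, the most abundant of the 40, read 4751, 4170.2 and 4508 at 8 h with amyloid-beta and 5094, 5248 and 6254 at 0 h in PD-1 KO-labelled libraries. In WT-labelled libraries it read 6216, 6106 and 6355 at 8 h with amyloid-beta and 6915, 5994 and 5987 at 0 h, overlapping, with a difference of -0.01 ± 0.09 and a 95% interval of -0.21 to 0.18. Of the licensing genes, Mcm2, Mcm3, Cdt1, Mcm7 and the helicase partner Gins2 did not pass in WT-labelled libraries, with differences from -0.31 ± 0.15 for Mcm7 to 0.25 ± 0.14 for Cdt1. Rrm2, the cell-cycle-regulated subunit of ribonucleotide reductase (chr12:24708241-24714146, plus strand), fell in WT-labelled libraries. It read 85.8, 119.9 and 113 at 8 h with amyloid-beta and 185, 135 and 137 at 0 h in PD-1 KO-labelled libraries, and 59.4, 24.99 and 36.5 at 8 h with amyloid-beta and 206, 203 and 182 at 0 h in WT-labelled ones. The groups overlapped in neither label, and the difference of changes was 1.83 ± 0.41 (adjusted p = 0.0101). Its partner Rrm1 fell too, at -0.64 ± 0.12 in WT-labelled libraries. Ccne1, which encodes cyclin E1, varied widely between libraries. It read 22.6, 1.96 and 20.8 at 8 h without amyloid-beta in PD-1 KO-labelled libraries and 24.02, 12.3 and 12.5 in WT-labelled ones, and the interval of its change with amyloid-beta under the WT label ran from -2.18 to 0.20. E2f1 read 262, 288 and 276 at 8 h with amyloid-beta and 376, 314 and 319 at 0 h in WT-labelled libraries, with a difference of -0.28 ± 0.12 (adjusted p = 0.0827). Cdt1, Mcm3, Pcna, Tyms, Ccne1 and Ccne2 passed in no comparison within a genotype label.

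**Figure D4:**
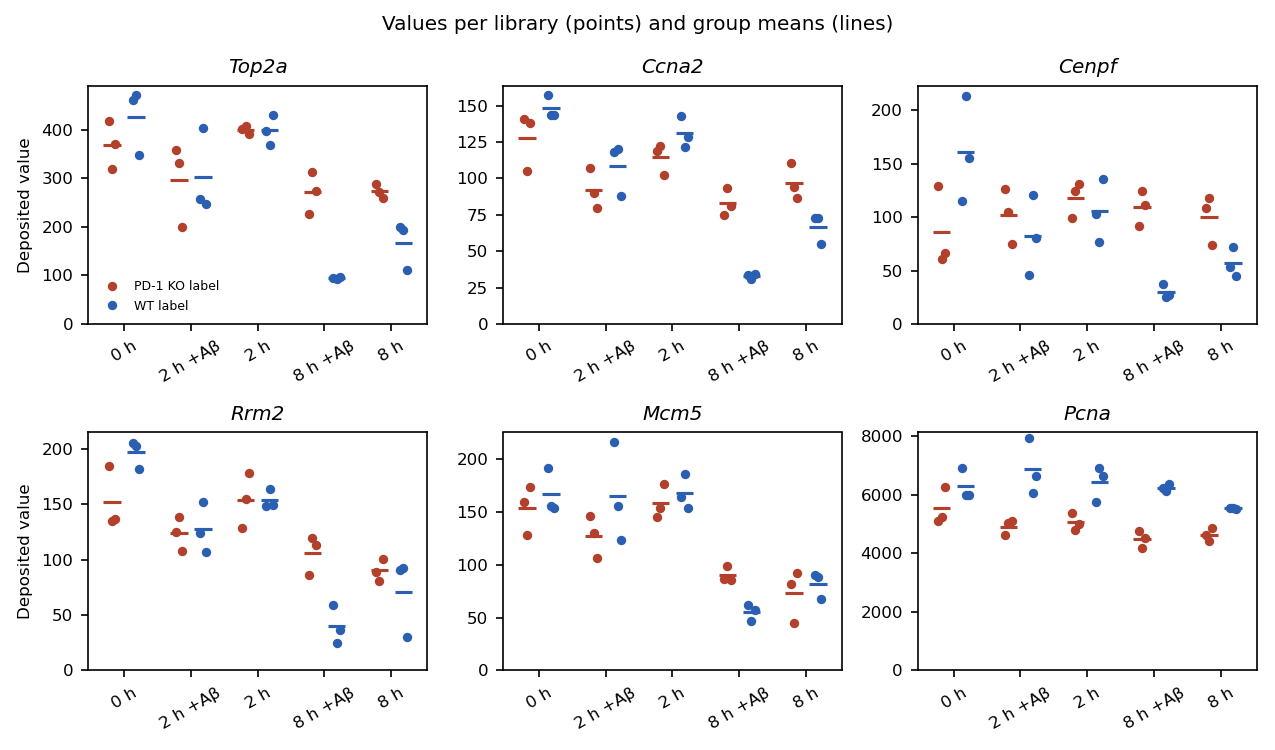
Deposited values of Top2a, Ccna2, Cenpf, Rrm2, Mcm5 and Pcna in every library, by condition, with PD-1 KO-labelled libraries (red) left of WT-labelled ones (blue); points are libraries, lines means of 3, and each y axis starts at 0. The 3 WT-labelled libraries at 8 h with amyloid-beta read 92.6 to 96.5 for Top2a, 30.9 to 34.01 for Ccna2 and 6106 to 6355 for Pcna.

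Amyloid-beta against none at 8 h called 0 of 40 genes under the PD-1 KO label (0.0583% of all genes) and 3 lower under the WT label (2.05% of all genes fell). Under the PD-1 KO label voom called 0 of the 40. There 2 of the 40 were higher and 0 lower at an unadjusted p below 0.05 (429 and 607 of all 13722 genes). The median was -0.02 under the PD-1 KO label, and -0.43 under the WT label, where all 24 mitotic genes had negative estimates (6968 of all 13722 genes). Without WT 8 h replicate 3 the WT-labelled median was -0.68. Ccna2 read 33.95, 30.9 and 34.01 with amyloid-beta and 73.1, 72.7 and 55.2 without it in WT-labelled libraries, a difference of -0.99 ± 0.17 (adjusted p = 0.0017). Nusap1 was at -1.42 ± 0.34 (adjusted p = 0.0245), from values of 12.7, 10.3 and 14.8 with amyloid-beta and 69.9, 34.98 and 17.5 without it. Top2a was at -0.77 ± 0.20 (adjusted p = 0.043), from 95.5, 92.6 and 96.5 with amyloid-beta and 199.8, 193 and 110.3 without it. No group pair of these 3 genes overlapped. Without WT 8 h replicate 3 the differences were -1.12 (adjusted p = 0.00048) for Ccna2, -1.90 (adjusted p = 0.000983) for Nusap1 and -1.04 (adjusted p = 0.00257) for Top2a. In PD-1 KO-labelled libraries Ccna2 read 74.6, 93.5 and 81.3 with amyloid-beta and 111, 94.3 and 86.5 without it, a difference of -0.22 ± 0.17 with a 95% interval of -0.56 to 0.12. Ccnb1 and Mki67 under the WT label did not pass, at -0.40 ± 0.37 and -0.80 ± 0.28. Without WT 8 h replicate 3 the count under the WT label was 9, with Ccnb1 at -1.15 (adjusted p = 0.0152) and Mki67 at -1.17 (adjusted p = 0.0153). Without WT 8 h replicate 1, WT 8 h replicate 2, WT 8 h with amyloid-beta replicate 1 or WT 8 h with amyloid-beta replicate 2 it was 1. Fitting only the groups compared gave 0, TMM factors gave 5, and quantile normalization, voom and a pseudocount of 10 gave 1 each.

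The genotype difference of the amyloid-beta effect at 8 h was called for 0 of 40 genes by limma, as for 0% of all genes, and for 0 by voom. At an unadjusted p below 0.05, 10 members were higher and 0 lower (650 and 160 of all 13722 genes), and the median of the 40 was 0.44. Without WT 8 h replicate 3 the median was 0.68, again with 0 called. A difference of the 8 h amyloid-beta effect between the genotype labels was therefore not shown for any of these genes. Markers of other cells moved with amyloid-beta at 8 h in the WT-labelled libraries: 4 of 10 astrocyte markers, 4 of 11 oligodendrocyte-lineage markers, 2 of 8 neuronal markers and 1 of 10 microglia markers fell, and none rose. Leaving out WT 8 h replicate 3, these were 5, 4, 2 and 1, with 1 of 9 fibroblast and vascular markers. The summed value of the astrocyte markers was 1298 to 1418 with amyloid-beta and 1835 to 3349 without it, and none of the 10 lay at the floor in any library. The part of these cells in the result was not tested.

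**Figure D5:**
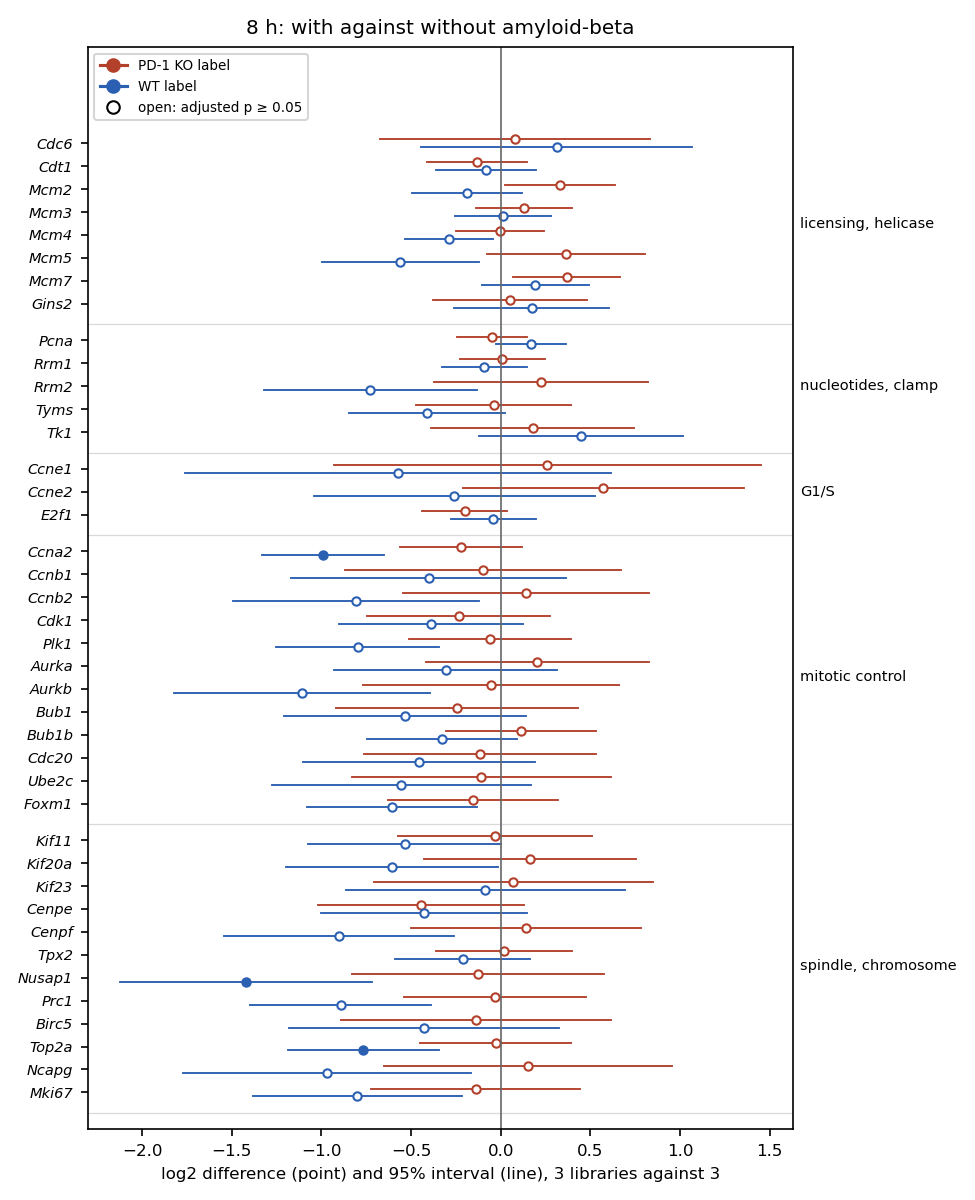
Log2 difference, amyloid-beta against none at 8 h, of each of the 40 genes in PD-1 KO-labelled (red, upper) and WT-labelled (blue, lower) libraries, grouped by role; points are limma estimates, lines 95% intervals, and filled points passed an adjusted p of 0.05. The filled points are Ccna2, Nusap1 and Top2a in blue.

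Between the genotype labels, PD-1 KO against WT called 0 of 40 higher and 3 lower at 0 h (Cdc6, Cenpe and Cenpf; 13.8% of all genes were higher and 6.88% lower), 1 in all without WT 0 h replicate 3, PD-1 KO 0 h replicate 2 or PD-1 KO 0 h replicate 3, and 0 without WT 0 h replicate 2 or by voom. At 2 h without amyloid-beta it called 1 higher and 2 lower (18.8% and 13.4% of all genes), and at 2 h with it 3 higher and 5 lower (22.2% and 16.7%), 5 in all when PD-1 KO 2 h with amyloid-beta loses its second library. At 8 h without amyloid-beta 10 were higher and 2 lower (18% and 9.01%), a count of 3 in all without WT 8 h replicate 3 and of 6 without PD-1 KO 8 h replicate 1. Fitting only the groups compared called 0 in all at 0 h, 6 at 2 h, 5 at 2 h with amyloid-beta and 7 at 8 h; voom called 6 at 2 h and 7 at 8 h. At 8 h with amyloid-beta 25 were higher, 20 of them mitotic, and 2 lower (22% and 11.7% of all genes). Kif11 stood apart by most there, at 2.09 ± 0.26 (adjusted p = 2.97e-07), and Pcna, lower under the PD-1 KO label at -0.48 ± 0.09, was the only gene of the 40 besides Cdt1 that was called lower. Pcna was called lower under the PD-1 KO label at 2 h and 8 h under both treatments and over all conditions (-0.35 ± 0.04 (adjusted p = 3.79e-08)); at 8 h without amyloid-beta it was -0.26 (adjusted p = 0.0894) without WT 8 h replicate 3 and no longer passed.

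Over all 5 conditions 19 of the 40 genes were higher and 5 lower under the PD-1 KO label, beside 30.3% and 29.1% of all genes. Without WT 8 h replicate 3 these counts were 17 and 5. The direction, however, depends on the scaling. Quantile normalization, which moved the median of all genes over the 5 conditions to -0.11, gave 5 higher and 19 lower, and turned Birc5, Ccna2 and Rrm2 round. At 8 h with amyloid-beta the same normalization gave 10 higher and 3 lower, with the 40 genes at a median of 0.23 and all genes at -0.12. At 8 h without amyloid-beta it gave 3 higher and 4 lower, and at 0 h, 2 h and 2 h with amyloid-beta it called 5, 8 and 17 in all. The falls with time within each label did not turn round under it: 26 of 40 still fell at 8 h with amyloid-beta against 0 h under the WT label, and 8 of 40 passed for the genotype difference of that change. The shares of all genes called under quantile normalization are not given here, so its counts are no result about the 40 genes alone. All 10 astrocyte markers were higher under the PD-1 KO label over the 5 conditions. Their summed value at 8 h with amyloid-beta was 15834 to 28826 in PD-1 KO-labelled libraries and 1298 to 1418 in WT-labelled ones. At 0 h it was 11514 to 22720.4 in PD-1 KO-labelled libraries and 2396 to 3923 in WT-labelled ones. In the change from 0 h to 8 h with amyloid-beta, 1 of 10 astrocyte markers rose under the PD-1 KO label and 7 of 10 fell under the WT label, and 7 of 10 passed for the genotype difference of the change. The part of astrocytes in these results was not tested.

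The rest of the pathway was followed through 120 listed genes, 119 of them in the file. At 8 h with amyloid-beta against 0 h, 2 of 119 rose and 4 fell under the PD-1 KO label (2.81% and 4.15% of all genes), and 7 rose and 55 fell under the WT label (7.43% and 12% of all genes). Of these 4 counts, only the 55 is a larger share of the 119 than of all genes, so the other genes named here are a description and no result about the pathway. The falls under the WT label covered 32 of 42 further mitotic genes, 14 of 39 further replication genes and 9 of 38 genes of the G1 cyclins, pocket proteins, E2Fs and brakes. The kinesin Kif2c was at -2.47 ± 0.30, the activator E2f2 at -2.39 ± 0.40, the spindle pole protein Aspm at -2.30 ± 0.30 and the mitotic kinase Pbk at -2.22 ± 0.39 there. Among the 7 genes that rose were Gadd45a, a growth arrest and DNA damage gene, by 1.13 ± 0.19, Gadd45b by 0.75 ± 0.27, the Cdk1 inhibitor kinase Wee1 by 0.52 ± 0.13 and the p53 regulator Mdm2 by 0.51 ± 0.10. Cdkn1a, which encodes the inhibitor p21, rose by 0.30 ± 0.10 under the WT label and differed by 0.23 ± 0.10 (adjusted p = 0.172) under the PD-1 KO label.

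Gadd45a and Mdm2 also rose under the PD-1 KO label, by 0.995 ± 0.19 and 0.35 ± 0.10. The 4 that fell there were the centromere histone Cenpa at -1.19 ± 0.22, the G1 cyclins Ccnd1 at -0.71 ± 0.10 and Ccnd3 at -0.64 ± 0.15, and the helicase gene Mcm6 at -0.58 ± 0.14. Cenpa thus fell under both labels, at -1.11 ± 0.22 under the WT label, whereas 15 of the 119 genes passed for the genotype difference of the change (3.46% of all genes), all higher under the PD-1 KO label and 14 of them mitotic. Without amyloid-beta, 8 h against 0 h called 0 higher and 3 lower of 119 under the PD-1 KO label (1.5% and 1.79% of all genes), a count of lower genes near that background. It called 1 higher and 28 lower under the WT label (3% and 3.05% of all genes), and 0 higher and 8 lower without WT 8 h replicate 3. Amyloid-beta against none at 8 h called 0 of the 119 under the PD-1 KO label (0.0583% of all genes) and 3 lower under the WT label (Aspm, the spindle protein gene Ckap2l and Ccnd3), a share near the 2.05% of all genes. It called 1 higher and 13 lower there without WT 8 h replicate 3. Myc, a driver of cell growth, did not pass in that comparison under the WT label, at 0.13 ± 0.12 (adjusted p = 0.692), or 0.20 (adjusted p = 0.525) without WT 8 h replicate 3.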

How the data were processed

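Total RNA of 30 microglia culture libraries was prepared with an Illumina TruSeq kit, per the labels' protocols. Tools listed in the submitters' processing notes, with no role for each, are Partek 6.6, HISAT 0.1.5, DESeq2 (no version) and R 3.0.2, and the build is mm10. Counting and annotation are not given in the sources used here. The deposited signal values are, judging from their steps, read counts per gene scaled by 1 factor for each library, with any value under 1 set to 1. Dividing by the step of each library gave whole reads, within 0.05, for 100% of values of up to 5000 reads. Column names of the table matched the sample labels, and 0 columns of other samples were present.

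Genes with a value of 10 in at least 3 libraries were tested (13722 of 13788). One mean per group was fitted to log2(value + 1) over all 30 libraries with limma 3.58.1 (intensity trend, 20 residual degrees of freedom, R 4.3.3), with Benjamini-Hochberg adjustment over all genes within each of 22 comparisons (threshold 0.05). A further 4 comparisons, on 8 h with amyloid-beta against 0 h or 2 h, and a voom fit on recovered reads were added after the data were seen. The fit was tested on simulated data. The members and lists were chosen with earlier results of these data known. The text names the members with the largest differences in each comparison, up to 6 per direction among those called, up to 4 of the other pathway genes, and a fixed set (Mki67, Top2a, Cdk1, Ccnb1, Ccna2, Mcm2, Mcm5, Pcna, Rrm2, Ccne1 and E2f1; Mcm6, Cdkn1a, Ccnd1 and Myc); sequences, positions and other members named for context came after their values were seen. The alternatives were a pseudocount of 10, no filter or one at 50, TMM factors, quantile normalization, fitting the compared groups alone and leaving out each library. Exon lengths and positions came from the GENCODE annotation of GRCm38. No 2 libraries of a group agreed within sampling noise. Figures were drawn with matplotlib 3.10.9.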

Additional observations from a re-analysis of the deposited data

Results flagged for a closer look

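For 16 tests, the change over time differed between the genotype labels at an adjusted p below 0.05 in limma, all of them in comparisons added after the data were seen. A positive value means that the log2 change was more negative under the WT label. For 8 h with amyloid-beta against 0 h, 13 of the 40 genes passed. The kinetochore and spindle genes were Cenpf at 2.79 ± 0.44, Nusap1 at 2.01 ± 0.48, Prc1 at 1.94 ± 0.35, Kif11 at 1.94 ± 0.37, Kif20a at 1.499 ± 0.41 and Tpx2 at 1.25 ± 0.26. The chromosome genes were Mki67 at 1.82 ± 0.40 and Top2a at 1.70 ± 0.29. The genes of mitotic control were Ccna2 at 1.52 ± 0.23, Plk1 at 1.496 ± 0.31, Foxm1 at 1.13 ± 0.33 and Bub1b at 1.04 ± 0.29, and Rrm2 of nucleotide supply was at 1.83 ± 0.41.

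For 8 h against 2 h, with amyloid-beta at both times, the genes that passed were Ube2c at 2.35 ± 0.50, Ccna2 at 1.53 ± 0.23 and Top2a at 1.53 ± 0.29. Both comparisons use the same 8 h libraries with amyloid-beta, so Ccna2 and Top2a do not stand as separate evidence in the second. Ube2c passed in the second alone, and it was also lower under the PD-1 KO label at 2 h with amyloid-beta. In the first, 7 of 10 astrocyte markers also passed in the same direction, with a median over the 10 of 1.53, and 3 of 10 microglia markers passed in the opposite direction. Their part in the result was not tested.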

How the results depend on the processing

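All counts here are of the 40 genes called in either direction. The shares of all genes called in the alternative fits are not given, so the counts describe the processing alone. With 1 library left out at a time the count for 8 h against 0 h under the WT label ran from 13 to 23, for 8 h against 2 h under the WT label from 4 to 18, for 8 h against 2 h under the PD-1 KO label from 1 to 2, for 8 h against 2 h with amyloid-beta under the WT label from 18 to 25, and for 8 h with amyloid-beta against 0 h from 0 to 2 under the PD-1 KO label and from 28 to 29 under the WT label. It ran from 1 to 9 for amyloid-beta at 8 h under the WT label, from 0 to 1 for 2 h against 0 h under the WT label and for its genotype difference, from 0 to 3 for the genotype difference of 8 h against 0 h, from 9 to 16 for that of 8 h with amyloid-beta against 0 h, and from 2 to 5 for that of 8 h against 2 h with amyloid-beta. For PD-1 KO against WT it ran from 0 to 3 at 0 h, 2 to 4 at 2 h, 5 to 10 at 2 h with amyloid-beta, 3 to 15 at 8 h and 20 to 28 at 8 h with amyloid-beta, and from 22 to 26 over all conditions. A group reduced to 2 libraries shares the spread of the other groups in the fit.

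Quantile normalization gave 4 for 8 h against 0 h and 6 for 8 h with amyloid-beta against 0 h under the PD-1 KO label, 1 for amyloid-beta at 8 h under the WT label, and 8 for the genotype difference of 8 h with amyloid-beta against 0 h. For PD-1 KO against WT it gave 5 at 0 h, 8 at 2 h, 17 at 2 h with amyloid-beta, 7 at 8 h and 13 at 8 h with amyloid-beta. Over all conditions it reversed Birc5 to -0.14, Ccna2 to -0.15, Rrm2 to -0.035 and Cdkn1a to 0.091; the cause was not tested. A fit with only the groups compared has fewer libraries: under the WT label it gave 10 for 8 h against 0 h, 0 for 8 h against 2 h, 11 for 8 h against 2 h with amyloid-beta and 0 for amyloid-beta at 8 h. Under the PD-1 KO label it gave 0 for 8 h against 0 h and 1 for 8 h with amyloid-beta against 0 h, and for PD-1 KO against WT 0 at 0 h, 6 at 2 h, 5 at 2 h with amyloid-beta and 7 at 8 h. A pseudocount of 10 gave 1 for amyloid-beta at 8 h under the WT label and 5 for 8 h with amyloid-beta against 0 h under the PD-1 KO label, and TMM factors gave 5 for amyloid-beta at 8 h under the WT label. Voom on recovered reads gave 1 for 2 h against 0 h and 1 for amyloid-beta at 8 h under the WT label, 6 for 8 h with amyloid-beta against 0 h under the PD-1 KO label, and for PD-1 KO against WT 0 at 0 h, 6 at 2 h and 7 at 8 h. The causes were not tested. Neither low-value filter moved a count by over 1.5 times.

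Of 3625 alternative fits of the 227 gene calls named by the rule, 3173 kept direction and call, 449 kept the direction and lost the call, and 3 reversed (Birc5, Ccna2 and Rrm2); Cdkn1a, the other reversal, was not a call before quantile normalization. A planned quasi-likelihood count test was not run, because the deposited values are scaled and floored and are not counts. The floor can hide low counts in 12 libraries, at most 4 reads for a gene in any of them. No paired analysis was possible because the labels give no replicate number that ties libraries across groups. Depth limits the lowest genes, such as Cdc6, Ccne1, Ccne2 and Ccnb2, more than Pcna.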
